A study of Homo sapiens with 6 samples.

Results

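The E2F and RB family genes described here are E2F1 to E2F8, which encode the E2F transcription factors, and RB1 and RBL1, which encode the retinoblastoma protein and p107. These 10 symbols were taken by name from the 23368 gene symbols counted in NB4 cells, a human cell line from acute promyelocytic leukemia. RNA-seq was conducted on NB4 cells left not treated (n.t.) or exposed for 24 h to 10 µM maltonis, a synthetic compound supplied from a stock in water, with 3 libraries per condition. The comparison asked how maltonis affects gene expression, and all libraries came from this 1 cell line grown in the same medium. Whether the not treated cells received water alone, and whether same-numbered libraries shared a culture, is not given in the sources used here. The study describes biological replicates, and p-values measure the spread between these libraries.

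E2F proteins bind DNA as dimers with a DP subunit and control genes needed to enter S phase. E2F1, E2F2 and E2F3 are the activators of the family, E2F4 and E2F5 act mainly as repressors together with pocket proteins, E2F6 represses through Polycomb proteins, and E2F7 and E2F8 repress without a DP subunit. The pocket proteins, RB1, RBL1 (p107) and RBL2 (p130), hold E2F proteins in check until cyclin-dependent kinases phosphorylate them. Transcript levels do not report that phosphorylation.

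The libraries held between 18492154 and 38205483 counts. Levels are given in CPM, counts relative to library size after TMM scaling (trimmed mean of M-values). A floor of 3 counts per library lay between 0.0828 and 0.160 CPM and covers counting error only. All 10 promyelocytic markers looked up were tested, with 3 higher and 4 lower after maltonis. These shares of 30% and 40% stand beside 31.9% higher and 32.1% lower over all genes tested. MPO, the myeloperoxidase of the granules, went from 14612 ± 1491 to 7425 ± 127 CPM, while CTSG, the granule protease cathepsin G, went from 109 ± 5.34 to 553 ± 19.9 CPM (SD, n = 3; adjusted p = 8.56e-06 and 2.77e-08, edgeR). Among markers of other cell types, MS4A1 and HBB were at 0 counts in every library, while 5 were tested. Of these, 2 were higher and 3 lower, or 40% and 60%, beside the same shares of all genes tested. CD3D, a T cell receptor subunit, was at 43.7 ± 0.970 CPM in n.t. and 15.3 ± 0.445 CPM in maltonis-treated cells, whereas PECAM1, an endothelial and myeloid adhesion protein, went from 11.1 ± 3.15 to 18.7 ± 2.54 CPM and KRT8, an epithelial keratin, from 2.62 ± 0.197 to 4.86 ± 0.840 CPM (SD, n = 3; adjusted p = 2.26e-07, 0.00776 and 0.0011, edgeR). CD3E, another T cell receptor subunit, did not pass the filter, with 0, 0 and 1 counts in n.t. and 0, 2 and 0 counts in maltonis-treated libraries. EPCAM, the other epithelial marker tested, fell from 17.1 ± 0.899 to 11.2 ± 1.41 CPM (SD, n = 3, adjusted p = 0.000862, edgeR). CD79A, a B cell marker, fell from 2.28 ± 0.564 to 0.878 ± 0.0678 CPM (SD, n = 3, adjusted p = 0.000627, edgeR). The 5 tested markers, of which CD3D was the most abundant in n.t. cells, summed to 75.3 to 78.6 CPM in n.t. and 47.4 to 53.0 CPM in maltonis-treated libraries. Their part in the results below was not tested. In RNA from a whole culture, fewer cells of a type and less RNA per cell cannot be told apart.

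The E2F genes are themselves known E2F targets, so the promoters that carry E2F-like words are shown first. RefSeq promoter windows, from 250 bases before to 50 bases after a start site on GRCh38.p14, were at hand for 8 of the 10 members; E2F5 and E2F8 had none, and the window of RB1 lies at a start inside the gene and is not printed. The windows were searched on both strands for the 8-letter E2F words TTTCCCGC, TTTCGCGC, TTTGCCGC and TTTGGCGC, and for the 7-letter words TTTCGCG and TTTGGCG, which lie inside 2 of the longer words. The 80 bases that end just before the start site are given 5′ to 3′ on the gene's strand, with every matched base in capitals. E2F1 is read from the minus strand of chr20:33686386-33686465, E2F2 from the minus strand of chr1:23531234-23531313, E2F3 from the plus strand of chr6:20401799-20401878 and RBL1 from the minus strand of chr20:37095998-37096077.
E2F1: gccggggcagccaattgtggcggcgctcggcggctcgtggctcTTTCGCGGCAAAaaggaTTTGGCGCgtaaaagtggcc
E2F2: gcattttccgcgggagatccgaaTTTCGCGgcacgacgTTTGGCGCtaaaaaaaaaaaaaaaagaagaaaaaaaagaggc
E2F3: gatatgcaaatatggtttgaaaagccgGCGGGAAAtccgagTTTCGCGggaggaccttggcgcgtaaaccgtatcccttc
RBL1: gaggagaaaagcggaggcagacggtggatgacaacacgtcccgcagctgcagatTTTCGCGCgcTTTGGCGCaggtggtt
The 7-letter words were present at 2 or more places in 0.105% of the 35116 windows, and E2F1, E2F2 and RBL1 were among them. At least 1 of the 8-letter words was present in 3.31% of all windows. E2F1 and RBL1 held 2 such matches each, E2F2 and E2F3 held 1 each, and these letters are not in the windows of E2F4, E2F6 and E2F7 or in the second window of E2F3. A match is a description of the letters, and binding was not measured here. Of the 4 genes printed, E2F2, E2F3 and RBL1 fell after maltonis and E2F1 did not pass the threshold, as described next. E2F4 and E2F6, whose windows lack these words, fell too, and 32.1% of all genes tested were lower. Of tested genes with an 8-letter word in a window, 31.7% were lower, beside 33.6% of those with any window.

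Differential analysis by the quasi-likelihood test of edgeR, adjusted after Benjamini and Hochberg over the 13209 genes tested and read at an FDR under 0.01, was possible for 9 of the 10 members, since E2F7 did not pass the filter on low counts. RB1 was the 1 member higher after maltonis, and 6 members were lower (E2F2, E2F3, E2F4, E2F5, E2F6 and RBL1), while E2F1 and E2F8 were not called. Over all genes tested, 31.9% were called higher and 32.1% lower, so that 64% of the genes tested passed this threshold. The median log2 fold change was -0.44 over the 9 members and 0.01 over all genes tested. The CPM ranges of n.t. and maltonis-treated libraries did not overlap for 7 of the 9 members, and for 76.6% of all genes tested. Beyond the 2.50-fold change that the study asked for, E2F2 and E2F5 were the 2 lower members, beside 10.4% of all genes tested, and 0 members were higher, beside 9.96% of all genes tested. The study also asked for an RPKM above 10 in untreated cells, and E2F2 and E2F5 stood below 10 on the comparable scale of CPM per kilobase, at 7.96 and 6.32.

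**Figure D1:**
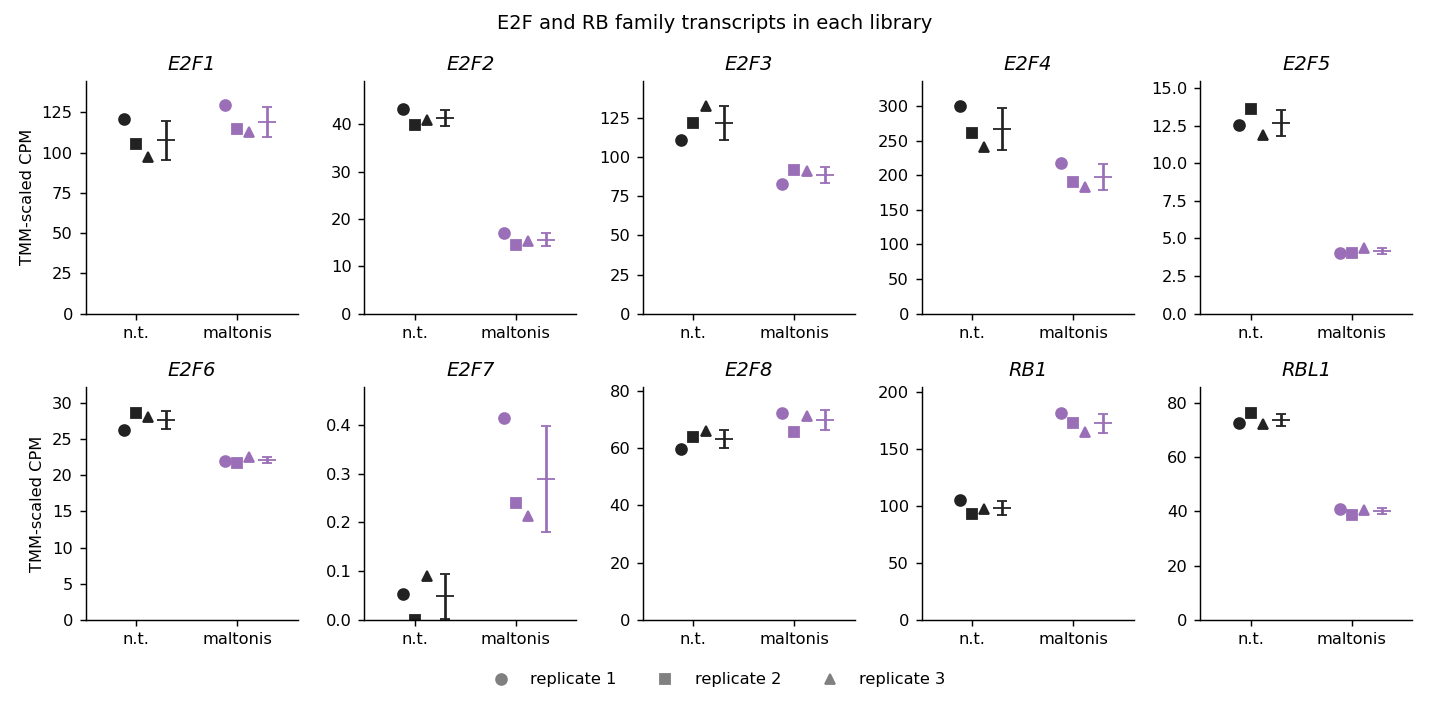
TMM-scaled CPM of each member (y axis, starting at 0 in every panel) in the 3 n.t. and 3 maltonis-treated libraries, with symbols for replicates 1, 2 and 3 and bars for the mean ± SD. RB1 stands higher in every maltonis-treated library, E2F2, E2F3, E2F4, E2F5, E2F6 and RBL1 stand lower, and the E2F1 and E2F8 values overlap.

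The activators behaved differently from each other. E2F1, which can drive both S-phase entry and apoptosis, was measured at 121, 105 and 97.1 CPM in n.t. replicates 1, 2 and 3 and at 129.7, 115 and 113 CPM in the maltonis-treated ones. These ranges overlapped, and the log2 fold change of 0.14 (95% interval -0.07 to 0.36; adjusted p = 0.186, edgeR) did not pass the threshold. E2F2, an activator prominent in blood cells, was at 43.3, 39.8 and 40.9 CPM in n.t. and at 17.1, 14.4 and 15.3 CPM in maltonis-treated cells. Every treated library was thus below every untreated one, and E2F2 fell 2.65-fold (log2 fold change -1.41, SE 0.0838, adjusted p = 1.04e-06, edgeR). E2F3, which has an activating and a shorter isoform that gene counts do not part, was at 111, 122 and 132 CPM in n.t. and at 82.8, 91.6 and 91.3 CPM after maltonis. The groups did not overlap, and E2F3 fell 1.38-fold (log2 fold change -0.46, SE 0.0793, adjusted p = 0.000711, edgeR).

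E2F4 is the most abundant family member in many resting and cycling cells, and its protein lacks a nuclear localization signal of its own. Its transcript was at 299.6, 261 and 240.3 CPM in n.t. and at 218, 190.3 and 183 CPM in maltonis-treated cells, with replicate 1 the highest in both groups and no overlap between them. E2F4 fell 1.35-fold (log2 fold change -0.44, SE 0.0966, adjusted p = 0.00305, edgeR). The call was lost without maltonis replicate 2 (adjusted p = 0.0106) and with scaling by total counts (log2 fold change -0.32, adjusted p = 0.0179), a scaling that moved the median of all genes to 0.13.

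E2F5, the other repressor that pairs with p107 and p130, was at 12.6, 13.6 and 11.9 CPM in n.t. and at 4.03, 4.06 and 4.37 CPM after maltonis. It fell 3.05-fold, the largest change of the 9 tested members (log2 fold change -1.61, SE 0.103, adjusted p = 1.57e-06, edgeR). An exon of E2F5 meets C8orf59 on the opposite strand, which had 773, 1391 and 1300 counts in n.t. and 739, 1330 and 1163 counts in maltonis-treated libraries. The kit marks the strand, but whether the counting used it is not given in the sources used here, so reads of the shared stretch cannot be assigned with certainty.

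E2F6, which lacks the domain that binds pocket proteins, was at 26.3, 28.6 and 28.1 CPM in n.t. and at 22.0, 21.7 and 22.5 CPM in maltonis-treated cells. The libraries of the groups did not overlap, and the change was the smallest called among the members, a 1.25-fold fall (log2 fold change -0.33, SE 0.0696, adjusted p = 0.00247, edgeR). It was lost without n.t. replicate 2 (adjusted p = 0.0145), without maltonis replicate 2 (adjusted p = 0.0129), with total counts (log2 fold change -0.21, adjusted p = 0.0223) and with the upper quartile (log2 fold change -0.24, adjusted p = 0.0122).

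The atypical members E2F7 and E2F8 hold paired DNA-binding domains and repress E2F targets late in S phase. E2F8 was readily measured, at 59.8, 63.9 and 65.9 CPM in n.t. and at 72.2, 65.8 and 71.4 CPM after maltonis. The lowest treated value lay just under the highest untreated one, and the log2 fold change of 0.14 (95% interval -0.01 to 0.30; adjusted p = 0.0873, edgeR) was not past the threshold. With scaling by total counts it was 0.26 and passed (adjusted p = 0.00697), so that 2 members were then higher and 4 lower, in place of 1 and 6. E2F7 was near the floor, with 1, 0 and 3 counts in n.t. and 8, 8 and 6 counts in maltonis-treated libraries. Pooled, these were 4 against 22 counts, a ratio of rates of 5.98 with an exact 95% interval from 2.03 to 23.9 that covers counting error only. Fitted without the filter, E2F7 had an adjusted p of 0.0157 in edgeR and 0.0263 in DESeq2, and was not past the threshold in either.

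RB1 was at 105, 93.0 and 96.8 CPM in n.t. and at 181, 172 and 164 CPM in maltonis-treated cells. All treated libraries stood above all untreated ones, and RB1 rose 1.76-fold (log2 fold change 0.81, SE 0.0674, adjusted p = 7.47e-06, edgeR). Introns of RB1 hold LPAR6 and RCBTB2 on the opposite strand. LPAR6 had 48, 84 and 88 counts in n.t. and 69, 102 and 105 counts in maltonis-treated libraries. RCBTB2 had 556, 1058 and 878 counts in n.t. and 838, 1597 and 1414 after maltonis. Their part in the RB1 counts was not tested. RBL1 encodes p107, which binds mainly E2F4 and E2F5 and is itself an E2F target. It was at 72.5, 76.1 and 72.3 CPM in n.t. and at 40.8, 38.8 and 40.5 CPM after maltonis, a 1.84-fold fall without overlap (log2 fold change -0.88, SE 0.0610, adjusted p = 2.53e-06, edgeR). RBL2, the p130 of resting cells and no member of the set named above, moved in the same direction as RBL1, from 151, 131 and 131 CPM to 74.8, 74.9 and 74.2 CPM (log2 fold change -0.88, SE 0.0699, adjusted p = 5.62e-06, edgeR).

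The deposited library names carry a code of unstated meaning that parts replicate 1 from replicates 2 and 3, and each part holds both conditions. Within replicate 1, the log2 difference of maltonis over n.t. was 0.79 for RB1, -1.34 for E2F2, -0.42 for E2F3, -0.46 for E2F4, -1.63 for E2F5, -0.25 for E2F6 and -0.83 for RBL1. Fitted on replicates 2 and 3 alone, the log2 fold changes were 0.82 for RB1, -1.45 for E2F2, -0.48 for E2F3, -0.43 for E2F4, -1.60 for E2F5, -0.36 for E2F6 and -0.91 for RBL1, each past the threshold. The 7 called members thus kept their direction in both parts.

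**Figure D2:**
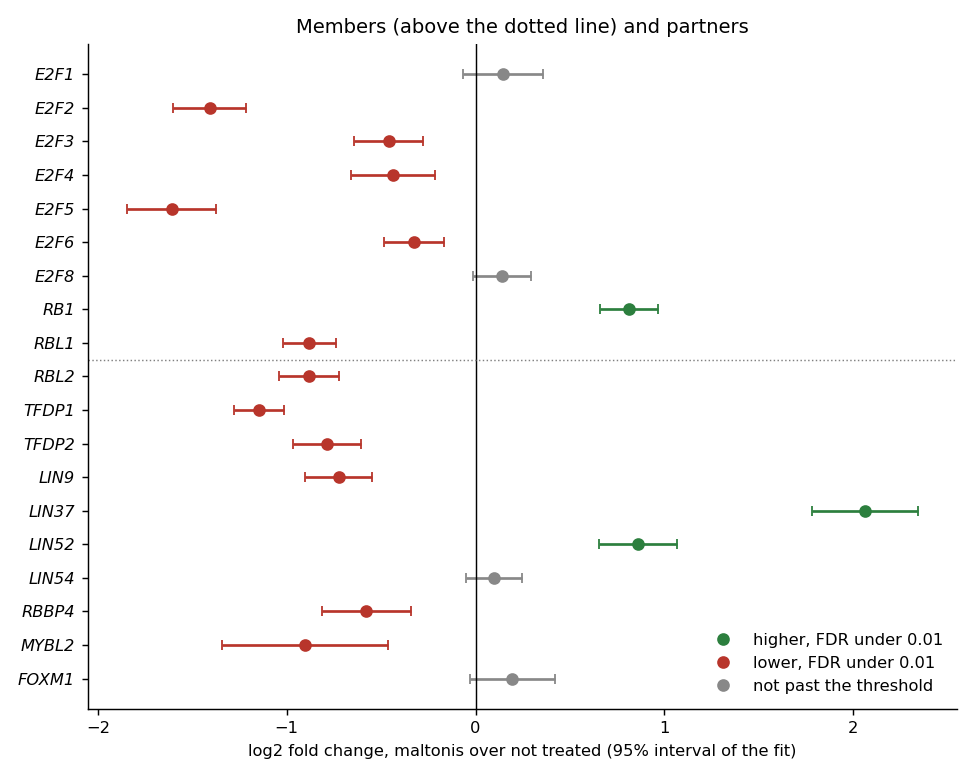
Log2 fold change of maltonis over n.t. (x axis) with the 95% interval of the edgeR fit for the 9 tested members, above the dotted line, and the 10 tested partner genes below it. RB1, LIN37 and LIN52 lie to the right of 0, and the intervals of E2F1, E2F8, LIN54 and FOXM1 cross it.

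To compare levels between genes, CPM were divided by the length in kilobases of the exons linked to RefSeq in GENCODE version 29. In n.t. cells the order of the members was E2F4 at 127 ± 14.4 CPM per kilobase, E2F1 at 43.1 ± 4.84, E2F3 at 24.8 ± 2.20, RB1 at 20.5 ± 1.28, E2F8 at 16.1 ± 0.801, RBL1 at 12.7 ± 0.374, E2F6 at 8.03 ± 0.354, E2F2 at 7.96 ± 0.337, E2F5 at 6.32 ± 0.426 and E2F7 at 0.00835 ± 0.00792 (SD, n = 3). With these lengths, E2F6 and E2F2 were the neighbors whose ranges overlapped. The order depends on the length chosen: with all annotated exons E2F4 was at 74.5 ± 8.41 CPM per kilobase and E2F5 at 2.14 ± 0.144 in n.t. cells, E2F8 at 15.3 ± 0.759 and RB1 at 15.2 ± 0.950 overlapped, and E2F2 at 7.57 ± 0.320 stood above E2F6 at 6.81 ± 0.301 without overlap (SD, n = 3). After maltonis the all-exon ranges of E2F4 and E2F1 overlapped as well, at 55.1 ± 5.13 and 47.6 ± 3.66 CPM per kilobase (SD, n = 3). After maltonis RB1 stood in the third place at 36.0 ± 1.74 CPM per kilobase, ahead of E2F3 at 18.1 ± 1.02 and E2F8 at 17.8 ± 0.892, whose ranges overlapped (SD, n = 3). E2F2 at 3.01 ± 0.261 CPM per kilobase was then below E2F6 at 6.41 ± 0.117, without overlap (SD, n = 3).

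E2F4 made up the largest share of the summed E2F level per kilobase in every library, 54.4% ± 2.31 in n.t. and 49.7% ± 1.50 in maltonis-treated cells (SD, n = 3). The share of E2F1 was 18.4% ± 0.774 in n.t. and 25.2% ± 0.329 after maltonis, and that of E2F2 was 3.41% ± 0.158 and 1.59% ± 0.0614 (SD, n = 3). None of these ranges overlapped, and the two-sided exact permutation p was 0.1 for each, the smallest that 3 against 3 libraries allow. Summed, E2F1 to E2F3 stood at 0.538 ± 0.0336 of the level of E2F4 to E2F6 in n.t. and at 0.671 ± 0.0277 in maltonis-treated cells (SD, n = 3; exact permutation p = 0.1). With the length of all annotated exons this ratio was 0.893 ± 0.0520 in n.t. and 1.11 ± 0.0429 after maltonis (SD, n = 3), higher after maltonis with either length but on the other side of 1. With that length the E2F4 share was 43.0% in n.t. and 37.7% in maltonis-treated cells.

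Among the pocket proteins the shares of the groups did not overlap, while the summed levels did. The summed level of RB1, RBL1 and RBL2 was 61.2 ± 3.36 CPM per kilobase in n.t. and 58.1 ± 1.84 after maltonis, with overlapping ranges (SD, n = 3; exact permutation p = 0.3). RB1 contributed 33.6%, 32.8% and 34.0% of that sum in n.t. libraries and 62.9%, 62.1% and 60.8% in maltonis-treated ones. RBL1 went from 20.7% ± 1.50 to 11.9% ± 0.446 and RBL2 from 45.8% ± 1.23 to 26.2% ± 0.725, each without overlap (SD, n = 3; exact permutation p = 0.1). The ratio of RB1 to RBL1 levels per kilobase was 1.62 ± 0.138 in n.t. and 5.23 ± 0.269 in maltonis-treated cells (SD, n = 3; exact permutation p = 0.1).

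**Figure D3:**
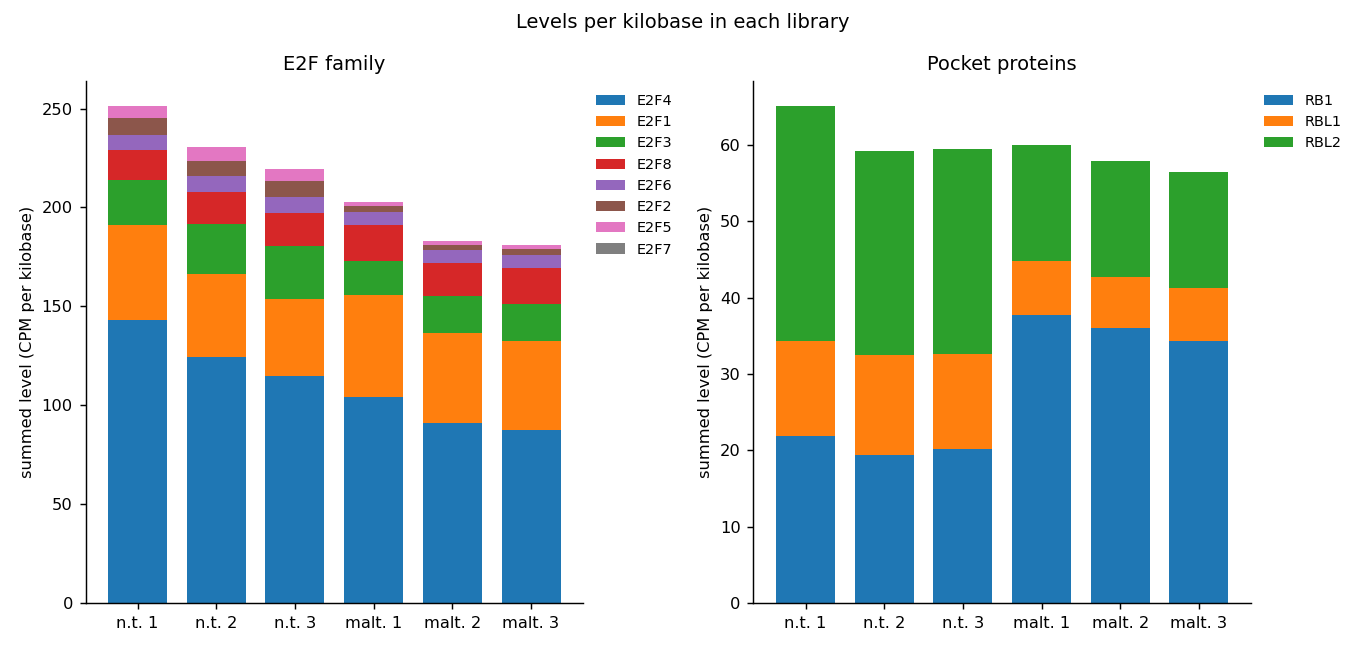
Levels per kilobase (y axis, CPM per kilobase, starting at 0) stacked for the 8 E2F genes on the left and the 3 pocket proteins on the right, 1 bar per library. E2F4 is the largest block of every E2F bar, and RB1 takes 32.8% to 34.0% of the pocket protein bar in n.t. and 60.8% to 62.9% in maltonis-treated libraries.

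The DP subunits, without which E2F1 to E2F6 do not bind DNA well, were both lower. TFDP1 went from 238, 257 and 248 CPM to 114, 113 and 108 CPM (log2 fold change -1.15, SE 0.0573, adjusted p = 4.12e-07, edgeR), and TFDP2 from 56.2, 49.96 and 51.0 CPM to 32.6, 29.3 and 29.3 CPM (log2 fold change -0.79, SE 0.0784, adjusted p = 2.34e-05, edgeR). Their summed level per kilobase was 98.6 ± 3.32 CPM in n.t. and 45.3 ± 1.39 in maltonis-treated cells (SD, n = 3), while the summed E2F level was 234 ± 16.3 and 189 ± 12.0 CPM per kilobase (SD, n = 3). Over the partner list, which holds the DP subunits, RBL2, the MuvB core, MYBL2 and FOXM1, 2 of 10 tested genes were higher and 6 lower, with a median log2 fold change of -0.65, beside 31.9% higher and 32.1% lower and a median of 0.01 over all genes tested.

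The MuvB core, the scaffold that joins E2F4 or E2F5 with p107 or p130 in the DREAM complex and later carries MYBL2 and FOXM1, did not move as a unit. LIN37, needed for repression by DREAM, rose 4.17-fold, from 4.85, 4.58 and 4.07 CPM to 21.3, 16.8 and 18.2 CPM (log2 fold change 2.06, SE 0.123, adjusted p = 1.06e-06, edgeR). LIN52 rose 1.82-fold (adjusted p = 3.24e-05, edgeR), LIN9 fell 1.65-fold (adjusted p = 3.7e-05, edgeR) and RBBP4 fell 1.49-fold (adjusted p = 0.000918, edgeR), whereas LIN54 was at 56.1 ± 0.182 and 60.0 ± 3.46 CPM (SD, n = 3; adjusted p = 0.201, edgeR). MYBL2, an E2F target that activates G2/M genes, was at 216, 385 and 365 CPM in n.t. and at 188, 172 and 156 CPM after maltonis, with n.t. replicate 1 far below the other untreated libraries. Its 1.87-fold fall (log2 fold change -0.90, SE 0.193, adjusted p = 0.00252, edgeR) was lost without n.t. replicate 2 (adjusted p = 0.0104) and without maltonis replicate 1 (0.0104), 2 (0.0122) or 3 (0.0154). FOXM1 was at 98.9 ± 1.14 and 113 ± 16.9 CPM (SD, n = 3), which did not pass the threshold (adjusted p = 0.105, edgeR).

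Upstream of the pocket proteins stand the G1 cyclins, their kinases and the kinase inhibitors. Of 16 genes listed, 14 were tested, 2 rose and 10 fell, with a median log2 fold change of -0.74. These are 14.3% higher and 71.4% lower, beside 31.9% and 32.1% of all genes tested. CCND1, a D-type cyclin, fell 7.67-fold from 69.3 ± 2.08 to 9.07 ± 0.709 CPM, and CCND3, another D-type cyclin, fell 1.83-fold from 495 ± 62.7 to 271 ± 31.6 CPM (SD, n = 3; adjusted p = 2.87e-08 and 0.000103, edgeR). CCND2, the remaining D-type cyclin, fell 5.35-fold from 970 ± 57.0 to 181 ± 1.11 CPM (SD, n = 3, adjusted p = 2.55e-08, edgeR). CDK6, a kinase partner of these cyclins, fell 2.16-fold (adjusted p = 6.86e-07, edgeR). CDKN1A, which encodes the CDK inhibitor p21, was at 23.0, 20.5 and 20.5 CPM in n.t. and at 2.12, 1.28 and 1.56 CPM after maltonis, a 13.2-fold fall (adjusted p = 1.72e-07, edgeR).

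In the opposite direction, CDKN2D, the p19 inhibitor of CDK4 and CDK6, rose 5.27-fold from 18.3, 18.4 and 16.4 CPM to 94.9, 95.1 and 89.8 CPM (log2 fold change 2.40, SE 0.0726, adjusted p = 4.13e-08, edgeR). CCNE2, a cyclin E that is a known E2F target, rose 1.33-fold (adjusted p = 0.00125, edgeR), a call lost without maltonis replicate 2 (adjusted p = 0.0121) or 3 (0.0114), when 1 gene of the list was higher. CCNE1, the other cyclin E, was at 15.0 ± 1.36 and 12.5 ± 0.704 CPM (SD, n = 3; adjusted p = 0.0356, edgeR). CDKN2A and CDKN2B were at 0 counts in all 6 libraries.

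The genes that E2F proteins are known to control at G1/S moved in both directions. Of 50 tested, 10 were higher, 15 lower and 25 not called, with a median log2 fold change of -0.07, beside 31.9% higher and 32.1% lower over all genes. A gene not called is not shown to be unchanged. For example, n.t. replicates 1, 2 and 3 were at 33.0, 60.6 and 67.9 CPM for TYMS and at 84.4, 175 and 156 CPM for DUT, both not called. With scaling by total counts 14 were higher and 14 lower. CDT1, a loader of the replicative helicase, rose 2.11-fold from 191 ± 13.4 to 404 ± 31.8 CPM, and RPA2, a subunit of the single-strand binding protein, rose 1.98-fold from 111 ± 2.94 to 219.8 ± 2.38 CPM (SD, n = 3; adjusted p = 3.42e-06 and 5.6e-07, edgeR). GINS3, a subunit of the helicase, fell 3.22-fold from 46.0 ± 2.25 to 14.2 ± 0.669 CPM, and POLE2, a subunit of DNA polymerase epsilon, fell 1.63-fold (SD, n = 3; adjusted p = 2.38e-07 and 4.97e-05, edgeR). CDC6, the licensing partner of CDT1, fell by 0.40 on the log2 scale, from 149 ± 5.22 to 113 ± 5.15 CPM, and PCNA, the sliding clamp, was at 385 ± 14.2 and 419 ± 18.4 CPM and was not called (SD, n = 3; adjusted p = 0.000306 and 0.0946, edgeR). PCNA passed with scaling by total counts (log2 fold change 0.24, adjusted p = 0.00454).

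Of 25 tested G2/M genes, which the MuvB complexes control, 9 were higher and 7 lower, with a median log2 fold change of 0.02. These shares of 36% and 28% are near the 31.9% and 32.1% of all genes tested. With scaling by total counts 10 were higher and 5 lower. UBE2C, the ubiquitin-conjugating enzyme of the anaphase-promoting complex, rose 2.65-fold, and CDC20, an activator of that complex, rose 1.74-fold (adjusted p = 2.17e-06 and 3.55e-06, edgeR). BIRC5, which encodes survivin, fell 4.14-fold from 169 ± 12.1 to 40.8 ± 1.76 CPM (SD, n = 3; adjusted p = 8.49e-08, edgeR). PLK1, the mitotic polo kinase, was at 81.0, 134 and 130.4 CPM in n.t. and at 41.9, 38.7 and 37.9 CPM after maltonis, with n.t. replicate 1 below the other untreated libraries, and fell 2.93-fold (adjusted p = 4.96e-05, edgeR).

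E2F6 acts with a Polycomb complex that silences germline genes in somatic cells. Of 14 proteins known from that complex, all with tested genes, 0 were called higher and 6 lower by edgeR, with a median log2 fold change of -0.26. The 42.9% lower compares with 32.1% of all genes tested, and the 0 higher with 31.9%. At an unadjusted p under 0.05, 1 was higher, DESeq2 called 0 higher, and scaling by total counts or the upper quartile gave 1 higher and 5 lower. RNF2, a ubiquitin ligase subunit, fell 1.87-fold from 34.3 ± 1.89 to 18.3 ± 0.789 CPM, and CBX3, a reader of methylated H3K9, fell 1.68-fold from 504 ± 32.1 to 300.02 ± 31.2 CPM (SD, n = 3; adjusted p = 8.16e-06 and 5.87e-05, edgeR). Of 10 germline genes, 3 passed the filter and 2 rose, or 66.7% of those tested, beside 31.9% of all genes tested. In n.t. libraries SMC1B had 4, 8 and 16 counts, and STAG3, which was not called, had 9, 5 and 3. Both passed the filter through the maltonis-treated libraries, so the filter itself favored a rise among them. SMC1B, the meiotic cohesin, was at 0.213, 0.221 and 0.483 CPM in n.t. and at 1.14, 2.51 and 1.46 CPM after maltonis, a 5.52-fold rise from near the floor (adjusted p = 0.000643, edgeR). TDRKH, a Tudor domain protein of the piRNA pathway, rose 2.68-fold from 10.9 ± 0.566 to 29.2 ± 0.695 CPM (SD, n = 3; adjusted p = 5.73e-07, edgeR). SYCP3 did not pass the filter and went the other way, with 11, 9 and 14 counts in n.t. and 1, 8 and 4 after maltonis. MAEL, DDX4, TDRD1, SLC25A31 and TEX101 were at 0 counts in every library.

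**Figure D4:**
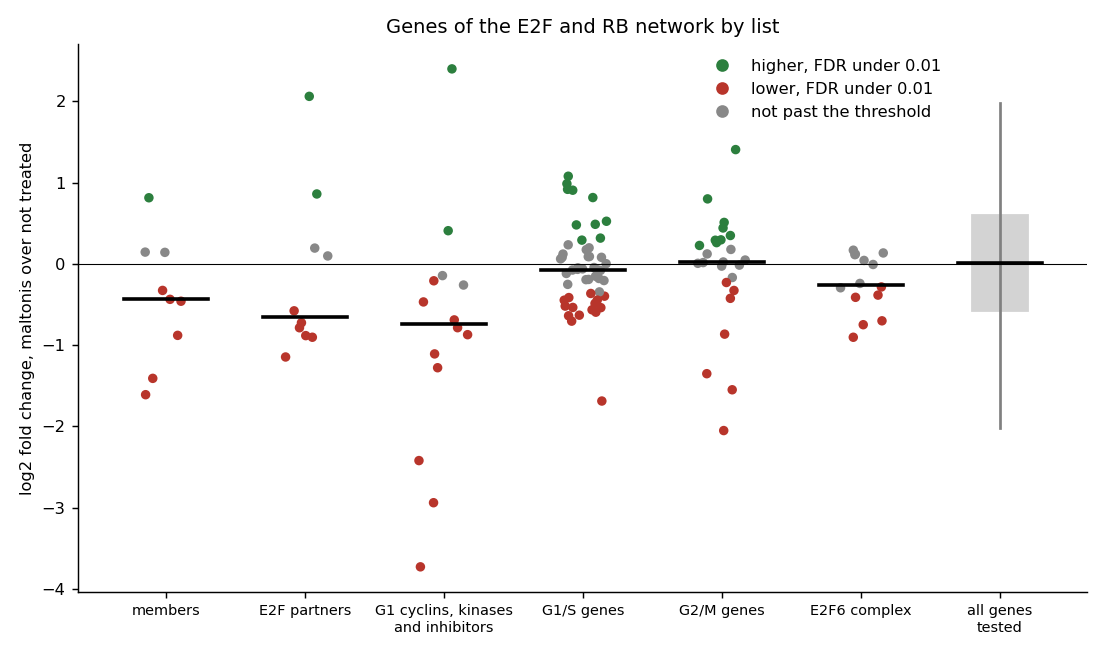
Log2 fold change of maltonis over n.t. (y axis) for each tested member and each tested gene of 5 related lists, with the list median as a bar; for all genes tested the box spans the middle 50% and the line the middle 90%. The medians run from -0.74 for the G1 list to 0.02 for the G2/M list, and the G1/S and G2/M lists hold genes on both sides of 0.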

How the data were processed

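RNA-seq libraries of NB4 cells, 3 not treated and 3 exposed to 10 µM maltonis for 24 h, were made from total RNA with a stranded kit. The authors deposited 1 table per library of raw counts of reads on each gene symbol; the submitters' processing notes name TopHat, Bowtie2, HTSeq and hg19, without versions, and the annotation and strand setting are not given in the sources used here. Differential expression was tested with edgeR 4.0.16 under R 4.3.3 (TMM scaling, filterByExpr, quasi-likelihood test without covariates, Benjamini-Hochberg adjustment over 13209 genes, FDR under 0.01), following the tool and FDR of the study. Replicate libraries differed by more than sampling noise (chi-square per degree of freedom 4.15 to 33.1). The largest values, 21.9 and 33.1, were for n.t. replicate 1 against n.t. replicates 2 and 3. Such values cannot show whether the libraries came from separate cultures. Each library was counted as its own sample because the study describes biological replicates. The test was tried on simulated data first.

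The members and lists were chosen with earlier results of these data known. Named genes were all members and 11 genes of the lists that are always named. Added to these were the 2 highest and 2 lowest called genes of each list whose groups did not overlap. LIN9, LIN54, RBBP4, CCND2, DUT, TYMS, STAG3, SYCP3, the markers and the genes at 0 counts fall outside this rule. They were chosen after their values were seen. Exon lengths came from GENCODE version 29 and promoters from RefSeq, both on GRCh38; no coordinate was carried over from hg19. Overlapping genes were looked up for the members only. The 7 pseudogenes of E2F3, E2F4 and E2F6 in GENCODE are not among the symbols counted, so their reads could be split or lost. Alternatives covered scaling, test (the likelihood ratio test of edgeR, DESeq2 1.42.0), filter, replicate block, library code, threshold, gene length and each library left out. Python 3.11.15 with pandas 2.3.3, numpy 2.4.6 and matplotlib 3.10.9 was used for levels, promoters and plots. The study's ChIP-seq and histone mass spectrometry were not used here.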

Additional observations from a re-analysis of the deposited data

Results flagged for a closer look

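Among the 37 named genes tested, an interaction term between maltonis and the code in the library names passed the threshold for MYBL2 and PLK1 (quasi-likelihood test of edgeR, fitted over all genes). For MYBL2 the log2 difference of maltonis over n.t. was -0.20 in replicate 1, against -1.16 and -1.22 in replicates 2 and 3 (adjusted p of the interaction 0.00355). For PLK1 it was -0.95 in replicate 1, against -1.79 and -1.78 in replicates 2 and 3 (adjusted p of the interaction 0.00648). In both genes n.t. replicate 1 was the low library, at 216 CPM against 385 and 365 CPM for MYBL2 and at 81.0 CPM against 134 and 130.4 CPM for PLK1. No member passed this test, with adjusted p from 0.527 to 0.958 for the 9 tested members. The first part holds 1 library per condition and has no replicate spread of its own, so it is assumed to vary like the other, which holds 2. A difference in the effect of maltonis and a deviation of n.t. replicate 1 alone cannot be told apart here.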

How the results depend on the processing

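The log2 fold changes of the 9 tested members were recomputed under 16 alternatives each. Of these 144 values, 137 kept their direction and their side of the threshold, 6 lost the call (E2F4 and E2F6), 1 gained it (E2F8) and 0 changed sign, with ranges of 0.76 to 0.93 for RB1, -1.50 to -1.29 for E2F2, -1.67 to -1.49 for E2F5 and -0.92 to -0.76 for RBL1. Of 448 values for 28 other named genes, 441 were likewise unchanged, 6 lost the call (MYBL2 and CCNE2), 1 gained it (PCNA) and 0 changed sign; the cause of the lost calls was not tested. Total counts moved the median of all genes from 0.01 to 0.13 and the upper quartile to 0.10. With total counts, 2 members were higher, and with either scaling 1 gene of the E2F6 complex was. With a 2.50-fold change asked for as well, 0 members were higher and 2 lower, with 1 and 0 partners, 1 and 3 of the G1 list, 0 and 1 of the G1/S list, 1 and 3 of the G2/M list and 0 lower of the E2F6 complex. Leaving out each library in turn gave 4 to 6 members lower and 1 to 2 genes of the G1 list higher, the latter 1 without maltonis replicate 2 or 3. With all annotated exons as length, the E2F4 share was 43.0% in n.t. and 37.7% in maltonis-treated cells, and the RB1 share of the pocket proteins 32.8% in n.t.; the ratio of E2F1 to E2F3 over E2F4 to E2F6 was 0.893 in n.t. and 1.11 in maltonis-treated cells, and this alternative changes the exon length alone. The replicate numbers were also fitted as a block: 1 member was higher and 6 lower, and 8 genes of the E2F6 complex were lower in place of 6. Deviations of same-numbered libraries from their group mean correlated at 0.301, 0.085 and 0.161, and n.t. replicate 2 correlated more with maltonis replicate 3 (0.123). Replicate 1 of each group correlated at -0.232 to -0.162 with replicates 2 and 3 of the other, the same split as the library code. With that split and 3 libraries per group, these correlations cannot decide whether the numbers pair the cultures. The main test used no pairing. Depth limits E2F7, with 26 counts in all, and the germline genes.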

Other observations

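Promoter windows were also set beside the calls, a description chosen after seeing the data. Of 9129 tested genes with a window, 31.2% were higher and 33.6% lower after maltonis, and of the 605 with an 8-letter E2F word, 34.0% were higher and 31.7% lower, with a median log2 fold change of 0.03. Within the G1/S list, 23 genes held such a word, of which 3 were higher and 10 lower, with a median of -0.21, beside 8 higher and 14 lower of the 43 with any window. The 7-letter words at 2 or more places were found for 26 tested genes, of which 4 were higher and 10 lower. The genes named next were picked after their values were seen. Besides E2F2 and RBL1, the lower ones included CDC25A, an activator of the CDKs (log2 fold change -0.79, adjusted p = 2.49e-06, edgeR), and MCM2, a subunit of the replicative helicase (-0.54, adjusted p = 9.06e-05, edgeR). POLA2, a subunit of DNA polymerase alpha, was among the higher ones (0.82, adjusted p = 8.08e-06, edgeR). Larger changes were also found among these 26 genes. SLCO4C1 (-2.98), DSTYK (-1.34) and ARPP19 (-0.87) fell more than CDC25A (adjusted p = 1.37e-06, 2.39e-05 and 2.00e-06, edgeR). CEP57 rose more than POLA2 (0.96, adjusted p = 7.28e-07, edgeR).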
